A study of Mus musculus with 2 samples.

Results

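The genes described here encode histone acetyltransferases and coactivators: Ep300, Crebbp, Kat2a, Kat2b, Kat5, Ncoa1, Ncoa2, Ncoa3 and Brd2. They were taken by symbol from a deposited table of 26037 genes, and 9 of 9 were found. RNA came from bone marrow-derived macrophages of C57BL/6 mice aged 6 to 8 weeks, in 2 groups of 1 library each: a library labelled MMP9_KO and a library labelled control. MMP9 is a matrix metalloproteinase, and the series concerns its cutting of the histone H3 tail. Both cultures had been expanded in M-CSF at 5 ng/ml and then at 30 ng/ml for 3 days, and both received RANKL, the cytokine that drives osteoclast formation, for 3 days. The column headings carry "sh" for the knockout and "NCsh" for the control, so whether Mmp9 was deleted or silenced cannot be told from the labels, and the number of animals or cultures behind each library is likewise not given in the sources used here. With 1 library per group there is no replicate check and no test between genotypes; every difference below compares these libraries only.

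Acetyltransferases move an acetyl group from acetyl-CoA to lysines of histone tails, which is associated with open chromatin and active transcription, and bromodomain proteins bind the acetylated lysines. p300 (Ep300) and CBP (Crebbp) are large paralogous enzymes that transcription factors recruit to enhancers and promoters, and they acetylate H3K18, the lysine beside which MMP9 is known to cut. GCN5 (Kat2a) and PCAF (Kat2b) are alternative catalytic subunits of the SAGA and ATAC complexes, TIP60 (Kat5) is the catalytic subunit of the NuA4-type complex, and the p160 proteins SRC-1, GRIP1 and SRC-3 (Ncoa1, Ncoa2, Ncoa3) bridge nuclear receptors to p300 and CBP. Brd2 is a BET-family reader of acetylated histones and is not itself counted among the lysine acetyltransferases. The comparison sets the transcript levels of these writers and readers in the library with little Mmp9 beside those in the control.

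The Mmp9 level was 3.87 in the MMP9_KO library and 139 in the control. Levels are normalised read counts: reads multiplied by 1 factor per library, not divided by gene length. The MMP9_KO library held 17741432 reads over genes and the control 20678441. Osteoclast markers differed widely between the libraries: 10 of 10 were lower by at least 2-fold in MMP9_KO, and their summed level was 395 there and 6824 in the control. Mmp9 is one of the 10, and 3 others (Calcr, Itgb3 and Oscar) were under 1 in MMP9_KO and reached the level for comparison only through the control. With both libraries scaled to the same sum, 9 of the 10 were lower by 2-fold. Among all genes that reached the level for comparison, 9.58% were lower by 2-fold and 4.0% higher with the deposited scaling. Of 10 macrophage markers 8 reached the level for comparison, of which 5 were higher by at least 2-fold and 1 (Cd68) was lower, with summed levels of 1429 in MMP9_KO and 1061 in the control; of the 8, only Fcgr1 reached that level through MMP9_KO alone. In bulk RNA, fewer osteoclasts and less RNA per osteoclast cannot be told apart, and the part of this difference in the values below was not tested. Markers of other cell types were near 0. The summed level of 10 neutrophil markers was 0.404 in MMP9_KO and 0 in the control, that of 10 T, NK and B cell markers 0.261 in MMP9_KO and 0.0994 in the control, and that of 10 stromal markers 0.879 in MMP9_KO and 1.34 in the control. Neither library had a read for 8 of the neutrophil markers, among them Ly6g and Elane, for 6 of the lymphocyte markers, among them Cd3e and Ms4a1, or for 6 of the stromal markers, among them Col1a1 and Col1a2.

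None of the 9 genes differed by 2-fold between the libraries. Their log2 ratios, MMP9_KO over control with a pseudocount of 1, ran from -0.54 for Kat2b to 0.01 for Kat2a, with a median of -0.25. The pseudocount applies to log2 ratios and to calls of 2-fold, while ratios of levels printed below have none, so at low levels a ratio can pass 2-fold without being counted. Over the 11126 genes with a mean level of at least 1 the median was -0.16, and 13.6% of them differed by at least 2-fold, 4.0% higher and 9.58% lower. A count of 0 among 9 genes is close to what that background would give and says little by itself. The log2 ratio as deposited was below 0 for 8 of the 9 genes, against 62.7% of the compared genes, and 6 of the 9 lay below the all-gene median. The full range of the 9 genes was narrow beside the transcriptome: 9 of 9 fell between the 25th and 75th percentiles of all compared genes, -0.55 and 0.17, and 37.8% of compared genes lay between the lowest and the highest of the 9. Scaling matters at this size of difference. Setting the all-gene median to 0 added 0.18 to the log2 ratios, a trimmed mean of ratios 0.18 and equal sums 0.29. With these scalings the numbers of genes higher and lower by 2-fold were 571 and 800, 577 and 796, and 691 and 684, against 445 and 1066 as deposited. Kat2b, Kat5, Ncoa2 and Brd2 stayed below 0 and Kat2a above 0 in all 10 settings tried, whereas Ep300, Crebbp, Ncoa1 and Ncoa3 took both signs.

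**Figure D1:**
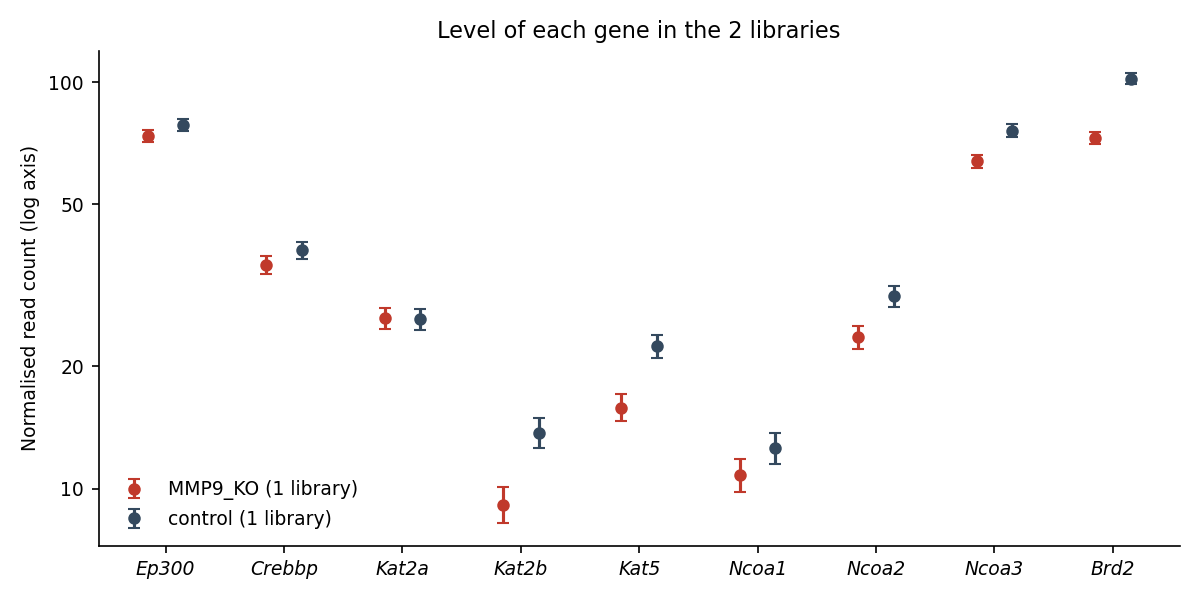
Normalised read count (log axis) of each gene in the MMP9_KO library (red, left) and the control library (dark, right); points are single libraries and bars are exact 95% intervals for counting error only. Kat2a had nearly the same level in both (26.2 against 26.1), and Brd2, Kat5 and Kat2b showed the widest gaps, from 72.8 against 102 for Brd2 to 9.12 against 13.7 for Kat2b.

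**Figure D2:**
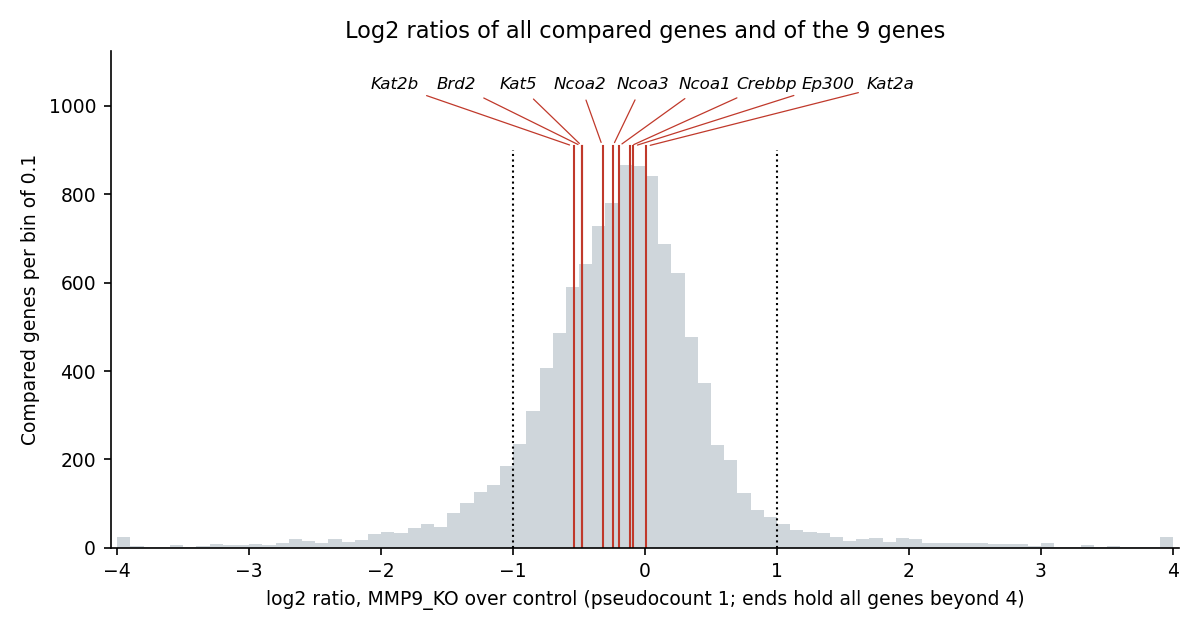
Histogram of log2 ratios (x axis, MMP9_KO over control, pseudocount 1) of 11126 compared genes (y axis, genes per bin), with a red line for each of the 9 genes and dotted lines at 2-fold. The 9 lines stand between -0.54 and 0.01, in the centre of the distribution.

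Ep300 (ENSMUSG00000055024; GRCm38 chromosome 15, plus strand, 81585351 to 81652077) had a level of 73.7 in MMP9_KO and 78.4 in the control, from 3104 reads in MMP9_KO and 3157 in the control. The ratio of 0.94 had a counting interval of 0.894 to 0.988, so the libraries differed by little more than the reads can resolve. Crebbp (ENSMUSG00000022521; chromosome 16, minus strand, 4081328 to 4213997) was 35.5 in MMP9_KO and 38.5 in the control, a ratio of 0.922 (0.858 to 0.99). Both H3K18 acetyltransferase genes thus stood slightly below the control, and relative to the all-gene median they were 0.07 and 0.05 higher on the log2 scale. Their sign turned positive with the median, trimmed-mean and equal-sum scalings and after centring in bins of GC content. Per kb of the longest annotated transcript, a scale on which genes can be compared, Ep300 was 7.71 in MMP9_KO and 8.20 in the control, and Crebbp was 3.28 in MMP9_KO and 3.56 in the control. Ep300 was the more abundant of the pair by a near-constant factor, 2.35 (2.21 to 2.50) in MMP9_KO and 2.30 (2.17 to 2.45) in the control. These intervals do not cover the choice of length: with all exons merged the factor was 1.97 in MMP9_KO and 1.93 in the control. The factor in MMP9_KO over that in the control does not depend on scaling or length and was 1.02 (0.935 to 1.11). A change in the balance of p300 and CBP mRNA beyond that interval was thus not seen at this depth.

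The GCN5 and PCAF genes differed in their ratios. Kat2a (ENSMUSG00000020918; chromosome 11, minus strand, 100704746 to 100712465) was 26.2 in MMP9_KO and 26.1 in the control, a ratio of 1.006 (0.924 to 1.10). Kat2b (ENSMUSG00000000708; chromosome 17, plus strand, 53566861 to 53672720) was 9.12 in MMP9_KO and 13.7 in the control, a ratio of 0.664 (0.581 to 0.758) and the lowest of the 9 genes. With the deposited scaling Kat2a was thus level between the libraries. Kat2b, from 384 reads in MMP9_KO and 553 in the control, was lower in MMP9_KO by more than counting error. The level position of Kat2a depends on scaling. Its log2 ratio was 0.01 as deposited, 0.18 with the all-gene median set to 0 and 0.28 with equal sums. Kat2b stayed below 0 with these scalings, at -0.38 and -0.28. Per kb the catalytic pair stood at 4.10 Kat2a to 1 Kat2b (3.64 to 4.61) in MMP9_KO and at 2.70 to 1 (2.44 to 3.001) in the control. The balance therefore differed between libraries by a factor of 1.52 (1.29 to 1.78), the only one of 5 within-family ratios whose interval left out 1. The transcripts also differ in base composition, at 57.4% GC for Kat2a and 46.6% for Kat2b. Centring by GC content in bins widened the difference to 0.97 on the log2 scale, against 0.60 as deposited.

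Kat2a has a close neighbour with a very different ratio. Dhx58, which encodes the RIG-I-like receptor LGP2 and is interferon-inducible, lies on the same strand 474 bases beyond the end of Kat2a in the annotation. It had a level of 32.8 in MMP9_KO and 0.770 in the control, a ratio of 42.6 (29.8 to 62.9). The Kat2a ratio beside it, at 1.006 with the deposited scaling, differed from 1 by less than counting error.

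Because Kat2a and Kat2b were the pair whose balance differed, the bases before their RefSeq starts (GRCm38.p6, 250 bases) are shown 5′ to 3′ as far as they lie outside the GENCODE gene: chr11:100712468-100712717 on the minus strand for Kat2a and chr17:53566721-53566860 on the plus strand for Kat2b. Capitals mark TGACG (part of the cAMP-responsive element), CCAAT and TGANTCA (the AP-1 site), searched on both strands.
Kat2a: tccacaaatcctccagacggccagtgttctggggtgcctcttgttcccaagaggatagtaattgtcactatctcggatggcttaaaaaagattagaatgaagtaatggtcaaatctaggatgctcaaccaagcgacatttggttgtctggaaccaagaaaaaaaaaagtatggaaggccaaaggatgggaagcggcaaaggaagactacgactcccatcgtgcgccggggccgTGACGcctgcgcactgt
Kat2b: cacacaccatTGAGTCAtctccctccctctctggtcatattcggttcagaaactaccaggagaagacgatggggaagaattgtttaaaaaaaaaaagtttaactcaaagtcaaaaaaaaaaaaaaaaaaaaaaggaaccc
The Kat2a window held 1 TGACG and no CCAAT or TGANTCA, and had 11 CpG. The whole 250-base Kat2b window at the printed start held 1 TGANTCA, within the printed stretch, and 1 TGACG and 1 CCAAT outside it. It had 6 CpG, the median of all windows. The window of another RefSeq start of Kat2b, which lies inside the gene and is not printed, held none of these matches and had 5 CpG. Among 32851 windows of this length, 17.8% held TGACG, 33.8% CCAAT and 6.75% TGANTCA. These matches describe the letters only. Promoter windows were found for 7 of the 9 genes.

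**Figure D3:**
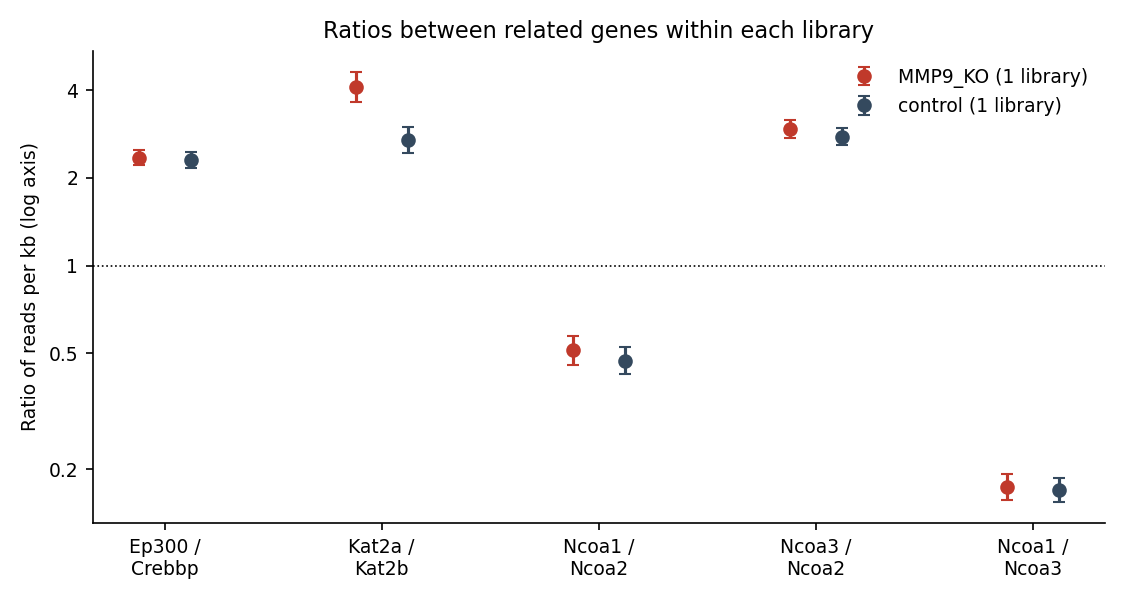
Ratio of reads per kb (log axis) between related genes within the MMP9_KO library (red, left) and the control library (dark, right), with exact 95% intervals for counting error only and a dotted line at 1. Kat2a over Kat2b was 4.10 in MMP9_KO and 2.70 in the control; for the other 4 pairs the intervals of the 2 libraries overlap.

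Kat5, encoding TIP60 (ENSMUSG00000024926; chromosome 19, minus strand, 5603014 to 5610237), was 15.8 in MMP9_KO and 22.4 in the control, a ratio of 0.707 (0.638 to 0.782). Per kb it was 7.05 in MMP9_KO and 9.97 in the control, which placed it 5th among the 9 genes in MMP9_KO and 3rd in the control. With all exons merged it was 5th in MMP9_KO and 4th in the control. After centring by GC content its log2 ratio was -0.17, against -0.48 as deposited. Rnaseh2c, on the opposite strand, overlaps the gene by 4006 bases and had 143 reads in MMP9_KO and 237 in the control, a ratio of 0.577 (0.465 to 0.713). Strand use in counting was not given in the sources used here, so reads of the 2 genes may not be fully separated. Of 16 compared subunits that surround TIP60, 0 differed by 2-fold, 12 had a log2 ratio below 0 and 4 above, and the median was -0.15. Over all compared genes 13.6% differed by 2-fold, 62.7% were below 0 and the median was -0.16. The large scaffold Trrap, shared with SAGA, was 116 in MMP9_KO and 131 in the control, and the ATPase gene Ep400 was 96.7 in MMP9_KO and 90.8 in the control.

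The p160 coactivator genes were lower in MMP9_KO by similar factors with the deposited scaling. Ncoa1 (ENSMUSG00000020647; chromosome 12, minus strand, 4247362 to 4477182) was 10.8 in MMP9_KO and 12.6 in the control, a ratio of 0.86 (0.756 to 0.978). Ncoa2 (ENSMUSG00000005886; chromosome 1, minus strand, 13139105 to 13374083) was 23.6 in MMP9_KO and 29.7 in the control, a ratio of 0.793 (0.728 to 0.863). Ncoa3 (ENSMUSG00000027678; chromosome 2, plus strand, 165992636 to 166073242) was 63.9 in MMP9_KO and 75.9 in the control, a ratio of 0.841 (0.799 to 0.887). The 3 intervals overlap one another, and the balance within the family held within counting error. Ncoa1 over Ncoa2 differed between libraries by a factor of 1.08 (0.928 to 1.27), Ncoa3 over Ncoa2 by 1.06 (0.96 to 1.17) and Ncoa1 over Ncoa3 by 1.02 (0.889 to 1.17). Of the family, Ncoa3 was the most abundant per kb, at 8.48 in MMP9_KO and 10.1 in the control, and Ncoa1 the least, at 1.47 in MMP9_KO and 1.72 in the control. Sulf2 overlaps the end of Ncoa3 on the other strand by 154 bases and had 17 reads in MMP9_KO and 16 in the control, at most 0.632% of the Ncoa3 reads. With equal sums Ncoa1 and Ncoa3 were 0.06 and 0.04 above 0 on the log2 scale, and Ncoa2 was at -0.05. After centring by GC content Ncoa1, Ncoa2 and Ncoa3 were at -0.08, -0.15 and -0.08. Nuclear receptors, the factors that these proteins bind, gave 0 higher and 2 lower by 2-fold of 11 compared, with a median of -0.32; 2 genes are 18.2% of this short list, beside the 9.58% of all compared genes that were lower. The lower ones were the orphan receptor gene Esrra, with a ratio of 0.477 (0.428 to 0.531), and the retinoic acid receptor gene Rarg, at 0.784 in MMP9_KO and 2.83 in the control, which reached the level for comparison only through the control. With equal sums neither was counted past 2-fold, for Rarg because the pseudocount weighs on so low a level. The glucocorticoid receptor gene Nr3c1 was 18.7 in MMP9_KO and 23.2 in the control.

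Brd2 (ENSMUSG00000024335; chromosome 17, minus strand, 34112023 to 34122634) was the most abundant of the 9 genes per kb, at 15.6 in MMP9_KO and 21.9 in the control. Its level was 72.8 in MMP9_KO and 102 in the control, from 3064 reads in MMP9_KO and 4102 in the control, a ratio of 0.714 (0.681 to 0.749). Brd2 was thus lower in MMP9_KO by an amount close to that of Kat5. After centring in bins of GC content its log2 ratio shrank to -0.04, against -0.48 as deposited; at 57.7% its transcript GC content was higher than that of 90.5% of compared genes. Brd3, another BET gene, had a ratio of 0.769 (0.719 to 0.823). Brdt, a BET gene known from the testis, was low, at 2.54 in MMP9_KO and 0.596 in the control, a ratio of 4.26 (2.72 to 6.94) from 107 reads in MMP9_KO and 24 in the control; it reached the level for comparison only through MMP9_KO. H2-DMa overlaps Brd2 on the opposite strand and had 25 reads in MMP9_KO and 85 in the control, at most 2.07% of the Brd2 reads. Across 13 readers and elongation factors 1 (Brdt) was higher by 2-fold and 0 were lower, with a median log2 ratio of -0.08. Over all compared genes 4.0% were higher and 9.58% lower.

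As a set, the 9 genes summed to a level of 331 in MMP9_KO and 399 in the control, a ratio of 0.83 (0.811 to 0.849). By family the sum for p300 and CBP had a ratio of 0.934 (0.897 to 0.973), for GCN5 and PCAF 0.888 (0.827 to 0.954) and for the p160 genes 0.831 (0.797 to 0.867). These intervals do not cover the choice of scaling: with equal sums the ratio of the set was 1.01, that of p300 and CBP 1.14, of GCN5 and PCAF 1.08 and of the p160 genes 1.01, each turned above 1. Kat5 and Brd2, which each stood alone as a family, stayed below 1 with equal sums, at 0.862 and 0.871. Per kb, p300 and CBP made up 19.5% of the summed level of the 9 genes in MMP9_KO and 16.8% in the control, while Brd2 made up 27.7% in MMP9_KO and 31.3% in the control. Brd2, then Ncoa3, led the order per kb of the longest transcript in both libraries, and Kat2b, then Ncoa1, closed it. With all exons merged, Ncoa2 stood in place of Kat2b before Ncoa1 in both libraries. By the longest transcript, Kat5 (9.97) and Ncoa3 (10.1) were close neighbours in the control, as were Kat2a (7.98) and Ep300 (8.20). So were Crebbp (3.56) and Ncoa2 (3.64).

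Few genes of the other acetylation complexes passed 2-fold. In each list of this paragraph the share past 2-fold, from 0% to 7.69%, was below the 13.6% of all compared genes. The lists are short, and this difference was not tested. Of 11 other acetyltransferase genes 0 differed by 2-fold, with a median log2 ratio of -0.03. Within the MYST family, Kat6a (Myst3 in the table) was 63.1 in MMP9_KO and 64.9 in the control, and its paralog Kat6b (Myst4) was 5.39 in MMP9_KO and 8.45 in the control, a ratio of 0.638 (0.537 to 0.757). Of 23 SAGA and ATAC subunits, partners of GCN5 and PCAF, 0 differed by 2-fold, with log2 ratios from -0.87 to 0.74 and a median of -0.03; with equal sums 1, Tada2a, was higher by 2-fold. The SAGA adaptor Tada1 was 31.1 in MMP9_KO and 32.8 in the control, and Tada2a, the adaptor of ATAC, was 19.2 in MMP9_KO and 11.1 in the control. Of 13 MYST partners 1 was higher and 0 were lower. This was Jade2 (Phf15 in the table), a scaffold of the HBO1 acetyltransferase complex, at 72.6 in MMP9_KO and 20.8 in the control, a ratio of 3.49 (3.23 to 3.77). Of 14 deacetylase genes 0 were counted past 2-fold, and the median was -0.21. Sirt3, at 2.64 in MMP9_KO and 5.64 in the control, had a ratio of 0.467 (0.369 to 0.589) without a pseudocount and was counted lower with a pseudocount of 0.1. Hdac1 was 34.7 in MMP9_KO and 30.2 in the control.

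Single genes with larger differences stood among the proteins that work with these enzymes. Of 15 other coactivators and corepressors 2 were lower by 2-fold and 0 higher, 13.3% beside 13.6% of all compared genes, with a median log2 ratio of -0.01. Ppargc1b, encoding the coactivator PGC-1beta, was 7.65 in MMP9_KO and 36.3 in the control, a ratio of 0.211 (0.186 to 0.238). Ncoa4, which shares the coactivator name with the p160 genes but is known as the cargo receptor for ferritin in autophagy, was 44.04 in MMP9_KO and 150 in the control, a ratio of 0.293 (0.278 to 0.309). Of 17 transcription factors known to bind p300 or CBP 3 were higher and 3 lower by 2-fold, 35.3% of the list, with a median of -0.31. Among the higher ones were Irf9 and Stat2, which carry type I interferon signals: Irf9 was 33.7 in MMP9_KO and 7.58 in the control, and Stat2 was 24.2 in MMP9_KO and 8.10 in the control. The lower ones act in the osteoclast and myeloid lineages: Mitf was 27.6 in MMP9_KO and 70.5 in the control, and Nfatc1 and Sfpi1 (PU.1), chosen after their values were seen, had log2 ratios of -1.10 and -1.04. With the 3 scalings Nfatc1 and Sfpi1 came within 2-fold, and Mitf did not. Creb1, the factor after which CBP is named, was 25.7 in MMP9_KO and 22.2 in the control. Of 9 genes for the supply of acetyl-CoA 1 was lower by 2-fold and 0 higher, 11.1% beside 13.6% of all compared genes. Their median log2 ratio was -0.55, below the all-gene median of -0.16. The log2 ratio was below 0 for 7 of the 9, beside 62.7% of all compared genes, and this difference was not tested. Pdha1, a subunit of pyruvate dehydrogenase, was 40.5 in MMP9_KO and 84.7 in the control and came within 2-fold under each scaling. Of the enzymes that make acetyl-CoA outside mitochondria, Acly, which uses citrate, was 328 in MMP9_KO and 317 in the control, and Acss2, which uses acetate, was 9.22 in MMP9_KO and 14.3 in the control, a ratio of 0.646 (0.567 to 0.736).

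**Figure D4:**
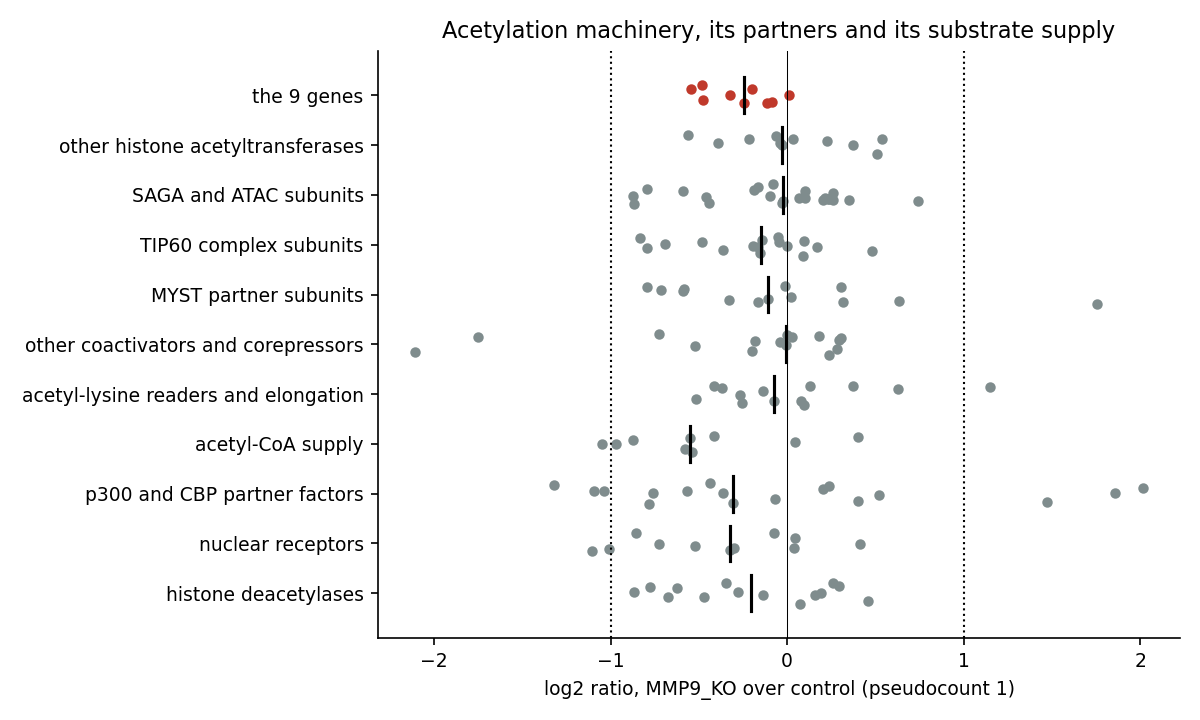
Log2 ratio (x axis, MMP9_KO over control, pseudocount 1) of each compared gene (points) in the 9 genes (red, top) and 10 lists of related genes (grey), with black bars at list medians and dotted lines at 2-fold. The 9 genes stay between -0.54 and 0.01, while partner transcription factors reach from -1.32 to 2.02.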

How the data were processed

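The deposited file is a single log2 table covering 26037 genes, with 1 column per library, made by the authors. Reads were aligned with TopHat to mm9, per the submitters' processing notes; not given in the sources used here were counting program, annotation and use of strand. Its title says normalised RPKM, yet each converted value was a whole number of equal steps (within 0.05 of a read for 99.99% of values in each), whatever the gene length. They were read as counts multiplied by 1 factor, and genes without a read were set to 0. Log2 ratios and calls of 2-fold used a pseudocount of 1, and printed ratios of levels none; a mean level of 1 or more was required for comparison, and 2-fold was the threshold. Fold intervals are exact conditional binomial 95% intervals; they cover counting error only, since without molecular identifiers PCR copies cannot be told from separate molecules. A count of 0 allows a level of up to 0.0713 in MMP9_KO and 0.0745 in the control (3 reads). Lengths, GC content and positions came from GENCODE M21 (GRCm38), matched for 23607 genes by Ensembl identifier, a later build than the alignment; promoters came from RefSeq. The text names the 9 genes, Mmp9, neighbours within 5 kb of a named gene, and in each of 15 lists the first 2 genes and up to 5 genes past 2-fold (the 4 largest where there were more). Not all are reported here. Outside this rule, Calcr, Cd68, Ms4a1, Nfatc1, Sfpi1 and Sirt3 were named after their values were seen. Of the list symbols, 4 had no entry in the table. Genes, lists and alternatives were chosen with earlier results of these data known. Methods were tested on simulated data. Python 3.11.15, numpy 2.4.6, scipy 1.17.1 and pandas 2.3.3 were used.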

Additional observations from a re-analysis of the deposited data

How the results depend on the processing

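No paired analysis was possible because each group is a single library, which also means that none could be left out. Over 9 alternatives the number of the 9 genes past 2-fold stayed at 0. Their median log2 ratio of -0.25 became -0.070 with the all-gene median set to 0, -0.066 with a trimmed mean of ratios, 0.036 with equal sums and -0.080 after centring in bins of GC content; the 3 scalings add nearly the same amount to each gene by construction, and for GC content the cause was not tested. The log2 difference of Kat2a over Kat2b, 0.60 as deposited, was 0.97 after centring by GC content. Lengths from all exons merged left 3 of the 9 genes (Brd2, Ncoa3 and Ncoa1) at their rank by level per kb in the control. The order of the other genes depends on the transcript chosen. Single-gene log2 ratios left their counting interval in 33 of 81 alternative values, and list counts moved by over 1.5 times in 23 of 216 values. Intervals cover counting error alone, so they set a lower limit on the uncertainty between cultures.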
